A study of Mus musculus with 6 samples.

Results

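DES epithelial cluster 0 is the largest of the 16 clusters into which the study divided the uterine epithelial cells of mice given diethylstilbestrol (DES) after birth. It was described here as the cells that carry this cluster number in the deposited cell table and have a column of counts, which gave 669 cells of 4608, or 14.5% (exact 95% interval 13.5 to 15.6%). The cluster table names 4610 cells, and 2 of them, of clusters 3 and 10, have no counts. The whole single-cell table holds 48699 cells. All 669 cells come from 1 library, so nothing between clusters or between single-cell conditions was tested, and the intervals given are exact 95% intervals that cover counting error only.

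Female CD-1 mice had received subcutaneous injections on neonatal days 1 to 5, either of the corn oil vehicle (CO) or of DES, a synthetic estrogen, at 1 mg/kg/day, and were 12 months old when the uteri were taken. The single-cell CO library pooled 2 mice and the single-cell DES library pooled 4, with no record of which mouse gave which cell, so differences between clusters and differences between mice cannot be told apart. CO mice were taken in estrus, DES mice are in persistent estrus, many DES mice of this age carry uterine cancer, and the tissue was dissociated with trypsin. Sections from a separate group of mice, 2 CO and 2 DES mice with 1 section each, were measured as spots of tissue that each hold several cells, and the second CO section had a tissue fold. Before these mice were chosen, a pathologist had looked for luminal and glandular epithelium in both groups and for uterine cancer in the DES tissue. The blocks were then cored to areas of interest. The DES clusters were made by the study without the basal cells.

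Crh encodes corticotropin-releasing hormone, the peptide with which the hypothalamus drives the pituitary stress axis. It acts through the receptors Crhr1 and Crhr2, is held inactive by the binding protein Crhbp, and is cut from its precursor by prohormone convertases before Pam amidates its end. Outside the brain it is known from uterine decidua. The uterine luminal epithelium is a simple columnar layer that answers to estrogen and progesterone. Its products include the secreted protein lactoferrin, encoded by Ltf, and small proline-rich proteins.

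Cluster 0 had the highest Crh level of any group of cells examined. Summed over its cells, Crh made 434 UMIs (unique molecules counted) in every 1000000 (CPM), with an interval of 425 to 443. The other 15 clusters pooled were at 99.7 CPM (98.1 to 101.4), a ratio of 4.35. The next clusters in order were cluster 7 at 250.1 CPM (240.0 to 261), cluster 5 at 179.7 CPM (171 to 189), cluster 10 at 144 CPM (131 to 157) and cluster 9 at 128 CPM (121 to 137). Counting intervals of clusters 10 and 9 overlap, as do those of clusters 12, 3 and 1, which lay between 100.4 and 107 CPM, and those of clusters 6, 2, 14 and 4, between 80.1 and 86.9 CPM. The lowest were cluster 8 at 28.6 CPM, cluster 15 at 16.7 CPM, cluster 11 at 11.5 CPM and cluster 13 at 1.84 CPM. The label of the cluster, highest Crh, describes these same counts, on which the clusters were made, and its rank is no test of it.

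**Figure D1:**
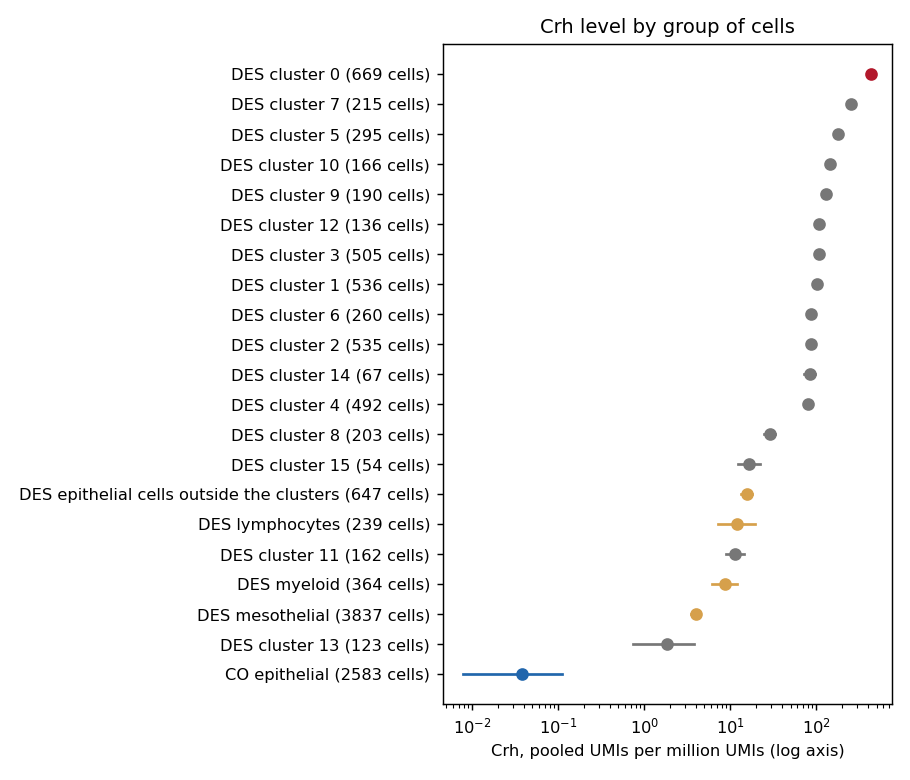
Crh level, in pooled CPM on a log axis, in each DES epithelial cluster, in other DES cells and in CO epithelial cells; bars are exact Poisson 95% intervals. Cluster 0, in red, sits highest at 434, and the CO epithelial cells, in blue, sit lowest at 0.0381.

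In the other cells with a named type the level was far lower. DES epithelial cells outside the clusters, which held 3172 CPM of the basal keratin Krt14, were at 15.6 CPM, DES lymphocytes at 12.1 CPM, DES myeloid cells at 8.67 CPM and DES mesothelial cells at 3.95 CPM (3.48 to 4.46). CO epithelial cells held 3 Crh UMIs in 2583 cells, or 0.0381 CPM (0.00785 to 0.111), so that cluster 0 was 11396-fold above them with a counting interval of 3898 to 55272. CO mesothelial and CO stromal cells held none. Those few UMIs leave the size of the ratio wide, and its direction is set by 9215 UMIs against 3.

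Within the cluster Crh was uneven. A UMI of Crh was found in 516 of the 669 cells, and 153 cells had none. The lower quartile was 1 UMI per cell, the median 6, the upper quartile 20 and the maximum 201. At least 10 UMIs were found in 40.5% of the cells, against 11.2% of the cells of the other clusters. The 67 cells with the most Crh held 43.1% of the cluster's Crh UMIs, and the level without them was 305 CPM, still above every other cluster. Cluster 0 held 12.9% of the UMIs of the clustered cells but 39.3% of their Crh UMIs, and 34.6% of all 26644 Crh UMIs of the DES library.

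Because deeper cells show more genes, each cell was also thinned at random to 3000 UMIs, which left out 1 of the 669 cells. After thinning, 52.4% of cluster 0 cells had a Crh UMI (48.5 to 56.2%), against 16% of the other clustered cells and 1.3% of DES mesothelial cells, a cell type taken as the background. The median depth before thinning was 22000 UMIs in cluster 0, 25323 in the other clusters and 12520 in the mesothelial cells. Without thinning the shares were 77.1% in cluster 0 and 40.8% in the others. Both shares of clustered cells were above the mesothelial share.

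The receptor, binding protein, convertase and urocortin genes of the CRH system were under the detection limit in cluster 0, where 3 UMIs correspond to 0.141 CPM. The receptor gene Crhr1 was at 0.0942 CPM, and no UMI of the receptor gene Crhr2 or of Crhbp was found. The convertase genes Pcsk1 and Pcsk2 also had no UMI there, nor had Ucn, which encodes the related peptide urocortin. Ucn2 was at 0.0942 CPM. Pam, the amidating enzyme with many substrates, was at 328 CPM in cluster 0 and 354 CPM in the others, a ratio of 0.927. Of the 9 genes of this list in the table only Crh and Pam reached the level at which ratios were read, and Crh was the only one past 1.5-fold.

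The cells had the marks of epithelium. Epcam, the epithelial adhesion molecule, was at 815 CPM in cluster 0 and 805 CPM in the other clusters, a ratio of 1.01, and was found in 93.7% of thinned cluster 0 cells against 9.57% of DES mesothelial cells. The simple keratins Krt8, Krt18 and Krt19 and the cadherin Cdh1 were all measured too, and the 5 epithelial markers had ratios between 1.01 and 1.19. Most markers of other cell types were low. Lyz2 was at 11.1 CPM against 20386 CPM in DES myeloid cells, and Upk3b at 13.3 CPM against 900.0 CPM in DES mesothelial cells. Dpt, Pdgfra, Rgs5, Emcn and Cd3d, which mark stromal, mural, endothelial and T cells, had no UMI. The myeloid marker Cd68, a lysosomal protein, was higher, at 65.4 CPM against 46.9 CPM in the other clusters and 874 CPM in DES myeloid cells, and was found in 16.6% of thinned cluster 0 cells against 2.04% of mesothelial cells. The pericyte marker Notch3 was at 14.7 CPM against 9.14 CPM in the other clusters and 227 CPM in CO pericytes. The stromal marker Dcn was at 84.8 CPM in cluster 0 and 91.4 CPM in the other clusters. The basal markers Krt14 and Trp63 were at 4.80 and 0.565 CPM, while Krt5 was at 67.7 CPM against 77.1 CPM in the others.

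The depth of cluster 0 was close to that of the other clusters. Its median cell had 21973 UMIs and 4691 genes, against 24982 UMIs and 4982 genes over the other clusters, and mitochondrial transcripts took 12.1% of its UMIs against 12.3%. Of its barcodes, 9 also occur in the CO library (1.35%), compared with 34 in the other clusters (0.863%) and 180 in the whole DES library (1.1%). Without these cells the Crh ratio was 4.35. In the study's joint clustering of CO and DES epithelium, 451 of the 669 cells (67.4%) fell in integrated cluster 2, which holds 793 cells and no CO cell, 90 in integrated cluster 6 and 67 in integrated cluster 3.

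Few genes separated cluster 0 from the rest. Levels were compared for 5849 genes, those that reached 20 CPM in cluster 0 or in the others, and 84 were at least 1.5-fold higher in cluster 0 (1.44%) and 158 at least 1.5-fold lower (2.7%), and the median ratio was 1.02. These ratios describe cells that were grouped on the same counts and are no test. Of the 84 genes, 29 were at their highest of all 16 clusters in cluster 0, and of the 158, 21 were at their lowest there. Of all 5849 genes, 138 were highest and 64 lowest in cluster 0, and genes picked by their ratio are more often at an end. The 15 genes with the highest ratios and the 15 with the lowest are given first, and the gene lists after them.

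The gene furthest above the other clusters was Acaa2, which encodes the mitochondrial thiolase of fatty acid oxidation. It was at 227 CPM (220.4 to 233) against 38.7 CPM, a ratio of 5.87, and its highest level elsewhere was 96.2 CPM in cluster 9. The gene is on chr18:74779197-74806208 of GRCm38. Its thinned share was 47.6% of cluster 0 cells and 11.2% of the others, but 75.9% of DES mesothelial cells, where it was at 575 CPM. It was thus the leading gene of the cluster within the epithelium and not within the uterus.

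Sprr1a, a precursor of the cornified envelope of squamous cells that simple epithelia also make under stress, followed at 161 CPM against 36.1 CPM, a ratio of 4.46. Cluster 15 was close at 154 CPM, and CO epithelial cells were higher than cluster 0 at 377 CPM. Crh itself, on chr3:19693401-19695396, came next. Ankrd37, a gene induced by hypoxia, was at 52.6 CPM against 12.1 CPM, a ratio of 4.35, with 44.7 CPM in cluster 15. Lgi2, which encodes a secreted leucine-rich repeat protein, was at 64.4 CPM against 20.8 CPM, a ratio of 3.1, and was close to absent from CO epithelium at 0.178 CPM.

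Serpina1c and Serpina1a encode forms of alpha-1 antitrypsin, a secreted inhibitor of neutrophil elastase. Serpina1c was the most abundant of the 15 genes at 840.8 CPM against 303 CPM, a ratio of 2.77, and Serpina1a was at 52.0 CPM against 18.1 CPM, a ratio of 2.88. Both were highest in cluster 0 and second in cluster 12, at 575 and 37.3 CPM. The mouse copies of this gene are close to identical, so reads of one can be counted to another and the split between them is uncertain. A thinned UMI of Serpina1c was found in 82.2% of cluster 0 cells, and in 40.3% of the others.

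Further genes of the higher set had ratios between 2.03 and 2.44. They include Trim12c, of the tripartite motif family, at 46.4 CPM against 19.0 CPM, and the homeobox gene Meis2 at 270.1 CPM against 121 CPM. Cyb5r3, a cytochrome b5 reductase, was at 539 CPM against 252 CPM. Osbpl6, Sult5a1, Myo3b and Rhoj were each between 22.6 and 35.0 CPM in cluster 0. Of all 15 genes, which were picked by their ratio, 10 were highest in cluster 0, as were 138 of all 5849 genes. For Myo3b, 1 of the 10, cluster 10 was within the counting interval of cluster 0, at 22.64 against 22.65 CPM. Only the interval of cluster 0 was used here. Next clusters were also close for Sprr1a and Ankrd37, at 154 and 44.7 CPM in cluster 15, and for Osbpl6, at 21.4 CPM in cluster 10. The top rank of these genes is therefore not settled. Of the 15 genes, Meis2, Sult5a1, Trim12c and Rhoj were among those higher in another cluster. Meis2 reached 350.2 CPM in cluster 5.

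**Figure D2:**
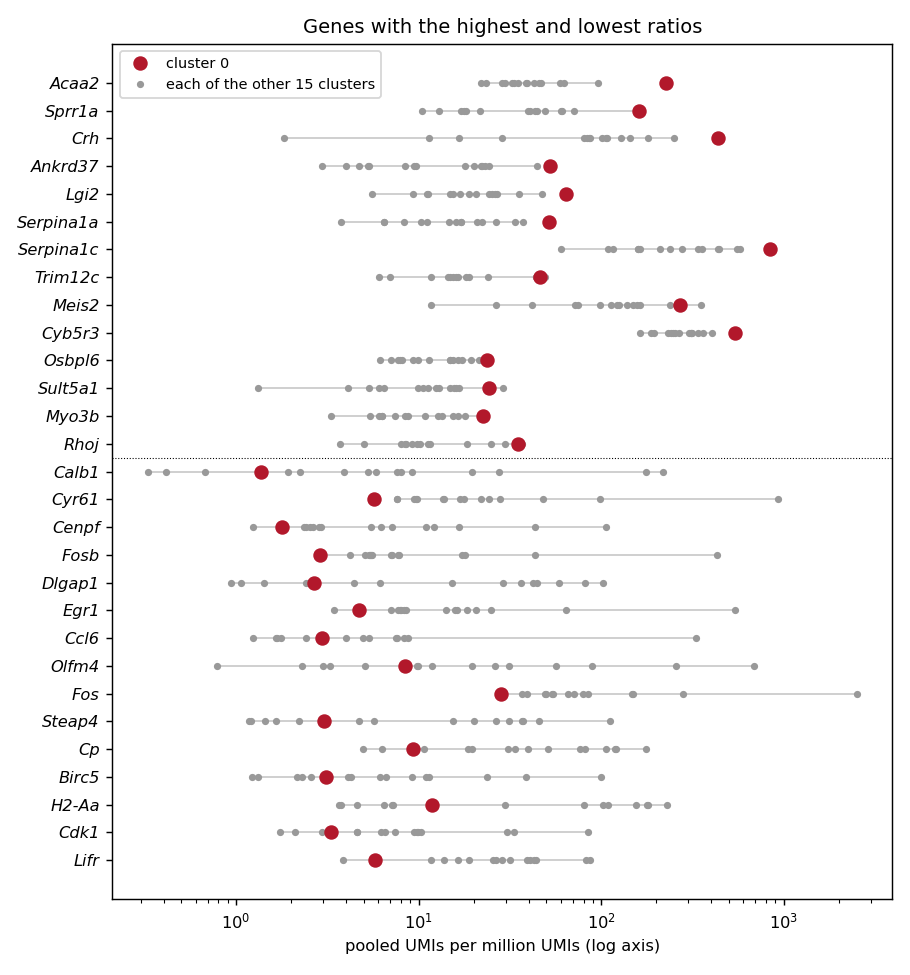
Levels of 14 of the genes with the highest ratio (top) and of the 15 with the lowest (bottom), in pooled CPM on a log axis; red points are cluster 0 and grey points the other 15 clusters, each cluster pooled over its cells. Among the upper genes 10 red points lie to the right of every grey point, that of Myo3b by very little, and among the lower genes 3 lie to the left of every grey point.

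Several of the lowest ratios belonged to genes that were high in 1 or a few other clusters. Calb1, a calcium-binding protein, was at 1.37 CPM against 20.9 CPM, a ratio of 0.0653, with 219 CPM in cluster 11. Olfm4, which encodes the cancer-associated protein olfactomedin 4, was at 8.38 CPM against 66.1 CPM, with 685 CPM in cluster 5, and cluster 0 was eleventh of 16. Ccl6, a chemokine, was at 2.97 CPM against 25.1 CPM, with 329.8 CPM in cluster 5. Leaving clusters 5 and 6 out of the comparison moved the ratio of Olfm4 from 0.127 to 0.336 and that of Ccl6 from 0.118 to 0.674. The ratio of Ccl6 was then no longer past 1.5-fold.

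Immediate early genes of the lower set, too, were high in 1 cluster, cluster 9. These genes are switched on within minutes of a stimulus, among them the handling of tissue. Fos was at 28.2 CPM against 206 CPM, a ratio of 0.136, Fosb at 2.87 CPM against 31.0 CPM and the growth regulator Cyr61 at 5.70 CPM against 72.5 CPM. Egr1 was at 4.71 CPM against 41.3 CPM, fifteenth of 16. Cluster 9 held the highest levels of all 4 genes, with Fos at 2519 CPM and 66.1% of the Fos UMIs of the other clusters. Without cluster 9, left out after the data were seen, the ratios were 0.381 for Fos, 0.35 for Fosb, 0.246 for Cyr61 and 0.377 for Egr1. Fos, Fosb and Cyr61 were lowest of the 16 clusters in cluster 0, but the next cluster, cluster 13, was within the counting interval of Fos, at 28.6 CPM, and of Fosb, at 2.89 CPM. CO epithelial cells were at 1133 CPM for Fos and 424 CPM for Egr1. Of the 14 genes of the immediate early and stress list that reached the level, 11 were at least 1.5-fold lower in cluster 0, 1 was higher and the median ratio was 0.465, where 2.7% of all genes were lower. Without cluster 9 only 4 of the 14, kept because they reached the level with it, were lower and the median was 0.804. Of the 4, Fosb and Egr1 were then under 20 CPM in both groups, at 8.22 and 12.5 CPM in the other clusters. The gene that was higher was the small heat shock gene Hspb1, at 349.6 CPM against 231 CPM.

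Of the 7 cell cycle genes that reached the level, 6 were at least 1.5-fold lower, where 2.7% of all genes were, with a median ratio of 0.231 and none higher. Their summed level in cluster 0 was fourteenth of 16. Cdk1, the mitotic kinase, was at 3.30 CPM against 20.4 CPM, the survivin gene Birc5 at 3.11 CPM against 21.0 CPM and the kinetochore gene Cenpf, outside the list, at 1.79 CPM against 20.6 CPM, while cluster 6 held 85.0, 100.1 and 107 CPM of these. Cluster 0 was thirteenth of 16 for Cdk1, eleventh for Birc5 and fifteenth for Cenpf. Cluster 6 held 48.4%, 55.4% and 60.2% of the UMIs of these genes in the other clusters. Without it, left out after the data were seen, the ratio of Cdk1 was 0.277 (0.161 with it), that of Birc5 0.293 (0.148) and that of Cenpf 0.193 (0.0869). Of the 7 listed genes 5 were then lower, with a median of 0.454. These 7 had reached the level with cluster 6 included. Without it Cdk1, Birc5 and Cenpf were under 20 CPM in both groups, at 11.9, 10.6 and 9.27 CPM in the other clusters. The median cell of cluster 6 had 65031 UMIs, against 21973 in cluster 0. Tyms, which is needed for DNA synthesis, had a ratio of 0.783 and was not past 1.5-fold.

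The last genes of the lower set fall in no single group. H2-Aa, of MHC class II, was at 11.9 CPM against 79.8 CPM, with 230.3 CPM in cluster 7. Lifr, the receptor of leukaemia inhibitory factor, was at 5.74 CPM against 34.0 CPM, fifteenth of 16, and Cp, the copper carrier ceruloplasmin, at 9.28 CPM against 64.3 CPM. Steap4, a metalloreductase, was at 3.01 CPM against 21.3 CPM, and Dlgap1, a scaffold protein, at 2.68 CPM against 25.01 CPM. The level of Cp was 285 CPM in CO epithelial cells and that of Lifr 57.4 CPM.

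Hypoxia-responsive genes outside glycolysis were on the higher side in cluster 0. All 8 that reached the level had ratios above 1, from 1.19 to 4.35 with a median of 1.43, where 3339 of the 5849 genes had a ratio above 1, and 3 of the 8 were at least 1.5-fold higher, as were 1.44% of all genes. These were Ankrd37, the mitochondrial autophagy gene Bnip3, at 21.1 CPM against 10.4 CPM, and Egln1, at 171 CPM against 105 CPM, which encodes the oxygen-sensing prolyl hydroxylase that marks hypoxia-inducible factors for destruction. Egln1 was highest of 16 in cluster 0, and Bnip3 was second to cluster 15. Ankrd37 and Bnip3 reached the level only through cluster 0, where they are high, and Ankrd37 was among the 15 genes picked by their ratio. The count of 3 is thus a description and no support. The histone demethylase gene Kdm3a had a ratio of 1.48. Of the 8 genes of this list under 20 CPM in both groups, Pdk1 had the highest ratio, at 17.9 CPM against 5.20 CPM, and Adm, which encodes adrenomedullin, the lowest, 0.462, at 3.47 CPM in the other clusters. The other 7 had ratios above 1. The summed level of the list was 763 CPM in cluster 0, second of 16, and reached 802 CPM in another cluster.

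Hypoxia-inducible factors bind DNA at the letters ACGTG or GCGTG, and the promoters of the 3 genes past 1.5-fold are shown for that reason. Each runs from 250 bases before the RefSeq start of the gene to 50 bases after it on GRCm38.p6, 5′ to 3′ on the minus strand, at chr8:45999801-46000100 for Ankrd37, chr7:138909457-138909756 for Bnip3 and chr8:124949205-124949504 for Egln1. Capitals mark ACGTG and GCGTG on either strand, and neighbouring or overlapping matches run together.
Ankrd37 promoter: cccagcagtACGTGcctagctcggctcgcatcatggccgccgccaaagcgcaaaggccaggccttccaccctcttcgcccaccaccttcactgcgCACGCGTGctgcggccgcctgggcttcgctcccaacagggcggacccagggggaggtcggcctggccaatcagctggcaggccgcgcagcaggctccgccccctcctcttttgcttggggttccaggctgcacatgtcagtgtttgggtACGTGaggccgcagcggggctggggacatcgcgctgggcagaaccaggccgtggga
Bnip3 promoter: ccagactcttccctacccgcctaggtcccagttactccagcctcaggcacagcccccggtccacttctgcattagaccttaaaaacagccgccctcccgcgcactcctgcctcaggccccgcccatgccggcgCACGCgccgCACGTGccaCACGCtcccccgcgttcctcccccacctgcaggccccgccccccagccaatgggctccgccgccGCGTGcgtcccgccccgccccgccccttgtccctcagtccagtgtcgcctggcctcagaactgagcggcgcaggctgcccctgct
Egln1 promoter: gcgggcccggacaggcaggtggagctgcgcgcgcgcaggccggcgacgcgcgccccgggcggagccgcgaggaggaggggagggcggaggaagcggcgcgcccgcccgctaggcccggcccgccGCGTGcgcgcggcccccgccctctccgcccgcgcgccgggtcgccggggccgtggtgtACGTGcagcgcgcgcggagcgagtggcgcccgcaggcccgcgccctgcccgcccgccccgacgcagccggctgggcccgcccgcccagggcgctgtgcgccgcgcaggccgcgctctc
The Ankrd37 promoter held 2 matches of ACGTG and 2 of GCGTG, that of Bnip3 2 and 3, and that of Egln1 1 and 1. ACGTG occurred in 19.6% and GCGTG in 32.4% of all 32851 promoters of the table, and 1 or the other in 43.8%. All 14 genes of the hypoxia list with a promoter in the table held 1 or the other, whether or not they reached the level, and of the 15 genes highest in cluster 0 5 of the 11 with a promoter did. A match is a description of these letters and not of binding.

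Few genes of glycolysis and fuel use were past 1.5-fold, which 1.44% of all genes were on the higher side and 2.7% on the lower. Of 11 glycolysis genes, 10 had ratios above 1 but only Pfkl, a subunit of phosphofructokinase, was past 1.5-fold, at 38.4 CPM against 22.0 CPM. Eno1 and Aldoa had ratios of 1.46 and 1.43, and Ldha 1.06. In fatty acid oxidation, 2 of 16 genes were past 1.5-fold, Acaa2 and the fatty acid importer Slc27a2, at 181 CPM against 107 CPM, and the median over the list was 0.969. Hadha and Hadhb, the subunits of the trifunctional protein that handles long chains, had ratios of 0.94 and 0.983, and Hadh, the dehydrogenase of the step before the thiolase, 0.828. None of 28 nuclear oxidative phosphorylation genes was past 1.5-fold, and their ratios lay between 0.748 and 1.16. Of 12 mitochondrially encoded genes 1 was past it, mt-Co1, at 14854 CPM against 22282 CPM and lowest of 16 in cluster 0.

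**Figure D3:**
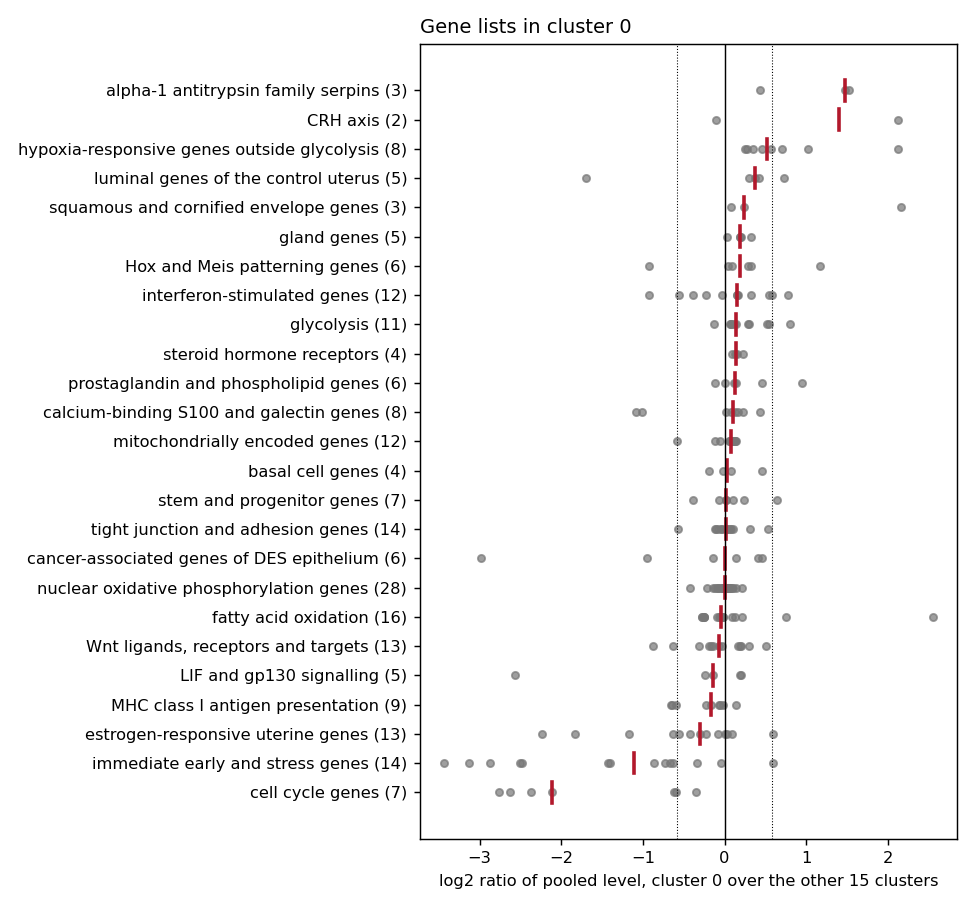
Log2 ratio of the pooled level in cluster 0 over the other 15 clusters for the genes of 25 lists that reached 20 CPM, with their number in brackets; each grey point is a gene, red bars are list medians and dotted lines mark 1.5-fold. The medians of the immediate early and cell cycle lists lie left of 0, the first at a ratio of 0.465 with cluster 9 and 0.804 without it, and all 8 hypoxia-responsive genes lie right of it.

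Estrogen-responsive genes went both ways. Of 13, 4 were at least 1.5-fold lower and 1 was higher, where 2.7% and 1.44% of all genes were. Ltf, which encodes lactoferrin, was at 730.4 CPM against 2595 CPM, fifteenth of 16, with 4998 CPM in cluster 1. Sprr2b was at 9.60 CPM against 45.1 CPM, Clu at 27.2 CPM against 61.0 CPM and Ccnd1 at 52.7 CPM against 82.0 CPM. Sprr2f was higher, at 4287 CPM against 2836 CPM, and like the other Sprr2 genes it shares sequence with close copies, which makes its count uncertain. The receptors themselves were not past 1.5-fold, among them Esr1 at 238 CPM against 214.5 CPM and Pgr at 102 CPM against 95.7 CPM.

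Immune genes were mixed. In the MHC class I list 3 of 9 genes were at least 1.5-fold lower, B2m, H2-K1 and H2-D1, with ratios of 0.663, 0.636 and 0.638, and none was higher, where 2.7% of all genes were lower. The summed level of the list in cluster 0 was eleventh of 16. Among 12 interferon-stimulated genes Isg15 was higher with a ratio of 1.72 and Ifitm1 lower with 0.527, while the median was 1.11. The calcium-binding gene S100a6 was at 84.0 CPM against 179 CPM, lowest of 16, and the galectin gene Lgals3 at 112 CPM against 225.5 CPM. Pla2g4a, the phospholipase that frees arachidonic acid for prostaglandins, was highest of 16 in cluster 0 at 234 CPM against 122 CPM. Ptgs2, the inducible cyclooxygenase of the next step, was at 8.38 CPM against 1.67 CPM and under the level at which ratios were read.

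The patterning, Wnt and stem cell lists had few members past 1.5-fold each, where 1.44% of all genes were higher and 2.7% lower. Meis2 was the only one of 6 patterning genes that was higher, and Msx1 the only one lower, at 29.4 CPM against 55.9 CPM. Of 13 Wnt genes Wnt5a and Ccnd1 were lower and none was higher, and Myc had a ratio of 1.43. Of 7 stem and progenitor genes only the glutathione transferase gene Gstm7 was past 1.5-fold, at 71.5 CPM against 46.0 CPM. Of 6 cancer-associated genes Olfm4 and the DNA repair gene Rad51b were lower, with Rad51b at 61.0 CPM against 118 CPM, while Pik3r1, a regulatory subunit of phosphoinositide 3-kinase, had a ratio of 1.33. The list of control luminal genes, which the study chose on these libraries, had Cdc42ep2 higher (ratio 1.65) and Cyp21a1 lower (0.308) among 5. No gene was past 1.5-fold in the lists of gland genes (5 genes), basal cell genes (4), steroid hormone receptors (4) and tight junction and adhesion genes (14). In the list of LIF and gp130 signalling Lifr alone of 5 was, and in the squamous list Sprr1a alone of 3.

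As a description, since the cluster was chosen on these same cells, with the cells divided at the depths that cut cluster 0 into 3 equal parts of 223 cells, the Crh ratio was 4.23 in the shallowest, 4.31 in the middle and 4.44 in the deepest part.

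After thinning, 350 cluster 0 cells had a Crh UMI and 318 had none. Of the 14 other leading genes, 12 had ratios above 1 of cells with over cells without Crh, the 14 running from 0.622 for Rhoj to 1.38 for Sprr1a. The share of all genes above 1 in this split was not counted, so nothing is read from the 12. The counting interval held 1 for 12 of the 14, which does not show that the levels were alike. Acaa2 was at 254 CPM in the first and 215 CPM in the second, Ankrd37 at 58.1 and 54.5 CPM, Lgi2 at 54.3 and 53.5 CPM and Meis2 at 259 and 246 CPM. Counting intervals of the ratio excluded 1 for Sprr1a, with 175 against 127 CPM, and Serpina1c, with 898 against 736 CPM. A cell without a Crh UMI after thinning can still hold Crh.

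The 451 cells in integrated cluster 2 had more Crh, 488 CPM, than the other 218 cells, 309.8 CPM, and more Ankrd37, 59.8 against 36.3 CPM, and Sprr1a, 181 against 116 CPM. Of 3 cell cycle genes of the lower set, Birc5 was at 1.151 against 7.57 CPM, Cdk1 at 1.42 against 7.57 CPM and Cenpf at 0.813 against 4.02 CPM. Both parts were above the other clusters in Crh and in Acaa2, which was at 238 and 200.1 CPM.

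The clusters most like cluster 0, by the correlation over 7132 genes of log2 levels centred on the mean of the 16 clusters, were cluster 10 (r = 0.391), cluster 1 (r = 0.317) and cluster 12 (r = 0.284). These values describe clusters of 1 library. Cluster 10 was shallow, with a median of 6343.5 UMIs per cell. Of 6014 genes, 120 were at least 1.5-fold higher in cluster 0 than in cluster 10, led by Acaa2 (ratio 3.62) and with Crh at 434 against 144 CPM, and 164 were lower, led by Steap4 (0.149) and Sprr2b (0.205).

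Against cluster 1, 172 of 5859 genes were higher and 237 lower. Ankrd37 was at 52.6 against 5.29 CPM, Acaa2 at 227 against 23.4 CPM, Sprr1a at 161 against 17.1 CPM and the cyclin gene Ccnd2 at 48.2 against 6.09 CPM. In the other direction Muc13, a transmembrane mucin, was at 0.706 against 35.0 CPM, and the amine oxidase gene Aoc1 at 5.13 against 62.4 CPM. Against cluster 12, 264 of 5815 genes were higher and 101 lower. Iigp1, an interferon-inducible GTPase, was at 33.4 against 3.61 CPM and Lgi2 at 64.4 against 11.1 CPM, while Krt5 was at 67.7 against 355 CPM and Upk3bl, an uroplakin-like gene, at 33.6 against 313 CPM.

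Over the 16 clusters the genes whose level followed Crh most closely, among 5614 genes of at least 20 CPM in cluster 0, were Med24 (r = 0.869), Mospd3 (0.864), Fgfrl1 (0.848), Bnc2 (0.841) and Ghr (0.833), and further down Sult5a1, Traf3ip2, Slc44a2 and RP23-105K2.3 with r between 0.818 and 0.833. None of the 10 closest genes was highest in cluster 0. Med24, a Mediator subunit, was at 333 CPM there and at 483 CPM in cluster 7. The growth hormone receptor gene Ghr was at 48.0 CPM and at 51.7 CPM in cluster 5. The 16 points share 1 library and its clustering.

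Against CO epithelium cluster 0 differed in far more genes. Of 6231 genes that reached 20 CPM in one or the other, 1027 were at least 1.5-fold higher in cluster 0 (16.5%) and 1047 at least 1.5-fold lower (16.8%). With 1 library per condition and different numbers of mice in each, this was not tested. Among the 15 genes that led cluster 0 within DES epithelium, 14 were past 1.5-fold over CO epithelium and 1, Sprr1a, was past it in the other direction. The 15 were chosen for a high level in cluster 0, which enters both ratios, so this count is no separate support. Meis2 was at 270.1 CPM against 3.92 CPM, Acaa2 at 227 against 19.9 CPM and Serpina1c at 840.8 against 154 CPM. Ankrd37 was at 52.6 against 29.96 CPM, and cluster 15, at 44.7 CPM, was also above CO epithelium, while the other DES clusters pooled were at 12.1 CPM.

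The 15 lower genes were likewise chosen for a low level in cluster 0. Of these, 10 were at least 1.5-fold under CO epithelium. The 2 at least 1.5-fold above it were Olfm4, at 8.38 against 0.964 CPM, and H2-Aa, at 11.9 against 3.48 CPM. In the hypoxia list Egln1 was at 171 CPM in cluster 0 and 162 CPM in CO epithelium and Bnip3 at 21.1 and 28.2 CPM. In glycolysis Ldha was at 558 and 978 CPM and Pkm at 122 and 332 CPM.

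The tissue sections came from mice that took no part in the clustering, so the leading genes of cluster 0 could be tested there between DES and CO. A section sums all its cells, and fewer cells of a type and less RNA per cell cannot be told apart in it. UMIs were summed over the 1357 to 1834 spots of a section, and the 2 DES and 2 CO sums were compared with edgeR's quasi-likelihood test. Over 14098 genes, 376 rose in DES sections (2.67%) and 371 fell (2.63%). Of the 15 genes highest in cluster 0, 1 rose, 2 fell and 12 did not pass the test, with a median log2 difference of -0.30 against -0.01 over all genes. Of the 14 tested genes of the lower set, 2 rose and 1 fell. Without the first or the second DES section 14 and 3 genes were called over the whole table, and without the first or the second CO section 2819 and 2336. The calls of Sprr1a, Ankrd37, Rhoj, Olfm4, Ccl6 and Cp below were each lost when either DES section was left out, with the direction kept and adjusted p between 0.0515 and 0.268, and each held without either CO section.

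Crh had no UMI in either CO section and was at 13.8 CPM in DES section 1 (126 UMIs) and 80.7 CPM in DES section 2 (797 UMIs). The DES sections differed from each other 5.84-fold. Set against the level of 3 UMIs in the CO section with the higher such limit, 0.272 CPM, the DES sections were at least 50.8-fold and 297-fold higher. The adjusted p was 0.0650 in edgeR's quasi-likelihood test, which does not pass the threshold of 0.05, and 0.0219 with the section number as a block.

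Sprr1a was at 121 and 88.7 CPM in the CO sections and at 1409 and 1000.1 CPM in the DES sections. It rose by 3.31 ± 0.29 on the log2 scale (SE, 2 against 2 sections, edgeR, adjusted p = 0.0206). This was the only gene of the 15 that rose. The cluster 0 level of Sprr1a, 161 CPM, was under that of both DES sections. In the sections 5 of 14 squamous and cornified envelope genes rose, Sprr1a itself among them. So did 2 of 9 basal cell genes, where 2.67% of all genes rose. The median log2 differences of these lists were 3.24 and 4.05. Krt14, which did not pass the test, was at 1.68 and 59.7 CPM in CO and 4175 and 2019 CPM in DES sections. Their part in the level of Sprr1a was not tested.

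Ankrd37 went the other way. It was at 87.0 and 43.4 CPM in the CO sections and at 6.91 and 5.97 CPM in the DES sections, and fell by 3.56 ± 0.42 on the log2 scale (SE, edgeR, adjusted p = 0.0246). Rhoj, a small GTPase known from endothelium, fell by 1.22 ± 0.15 (SE, edgeR, adjusted p = 0.0276, and 0.0550 with the section number as a block) and was at 47.8 and 50.5 CPM in CO and 24.9 and 23.8 CPM in DES sections. In the hypoxia list 3 of 16 genes fell, Ankrd37 itself among them, and none rose, where 2.63% of all genes fell and 2.67% rose. Bnip3 was one of them, at 48.1 and 39.1 CPM in CO and 14.3 and 15.9 CPM in DES sections, and Ndrg1 was another, while Egln1 was at 139.6 and 105 CPM in CO and 63.7 and 70.1 CPM in DES sections and did not pass the test. The DES cluster with the highest measured Ankrd37, with cluster 15 close, thus belongs to a tissue with a lower summed level than CO.

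Other genes of the higher set had DES and CO sections that did not overlap but missed the threshold. Lgi2 was at 0.80 and 1.18 CPM in CO and 5.59 and 4.96 CPM in DES sections (edgeR, adjusted p = 0.0508). Meis2 was at 27.0 and 39.5 CPM in CO and 80.6 and 88.9 CPM in DES sections (edgeR, adjusted p = 0.0626). Myo3b was higher in CO, at 22.9 and 11.8 CPM against 4.94 and 4.55 CPM in DES sections (edgeR, adjusted p = 0.0587). The CO sections stood apart from each other in Acaa2, at 46.3 and 122 CPM, with the DES sections between them at 61.6 and 58.7 CPM. The same held for Serpina1c, at 134 and 792 CPM in CO and 252 and 553 CPM in DES sections.

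Of the lower set, Olfm4 was at 0.40 and 2.18 CPM in CO and at 1534 and 1340.1 CPM in DES sections (edgeR, adjusted p = 0.0183), and Ccl6 at 17.4 and 43.5 CPM in CO and 215 and 265 CPM in DES sections (edgeR, adjusted p = 0.0438). Both rose, although cluster 0 held little of either. The DES tissue had been examined for cancer before the sections were chosen. Cp fell, from 95.2 and 55.5 CPM to 19.0 and 18.8 CPM (edgeR, adjusted p = 0.0333). Markers of other cells differed between the groups too, but not as whole lists except for myocytes, whose 4 markers all fell. Dcn fell, 1 of 6 stromal markers, and of 3 pericyte markers Rgs5 fell and Notch3 rose. Upk3b rose, 1 of 3 mesothelial markers tested, while Wt1 was lower in DES, at 30.1 and 44.0 CPM in CO and 18.8 and 19.5 CPM in DES sections. Cd79a rose, 1 of 5 lymphocyte markers, while Nkg7 was lower in both DES sections. Neither Wt1 nor Nkg7 passed the test. None of the 5 epithelial markers passed it, with Epcam at 451 and 256 CPM in CO and 435 and 501 CPM in DES sections. The part of other cells in these results was not tested.

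**Figure D4:**
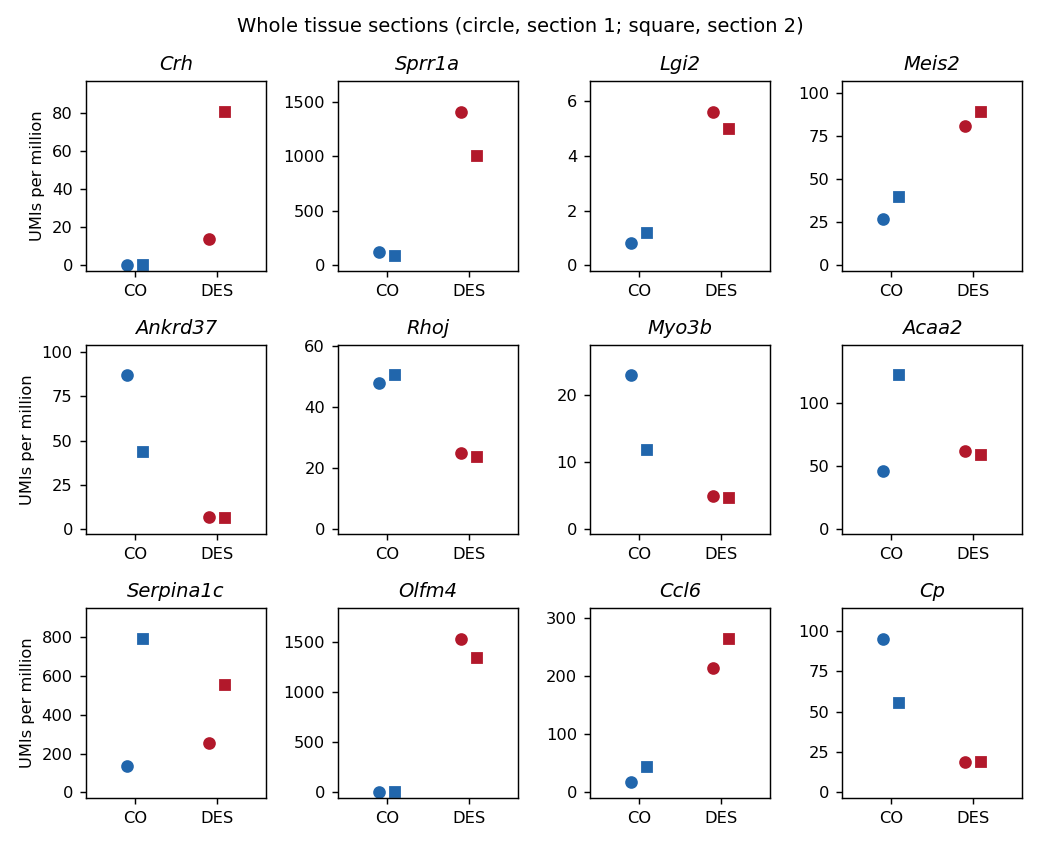
Level of 12 genes in the whole tissue sections, in CPM of the section on a linear axis, for CO (blue) and DES (red) mice; circles are section 1 and squares section 2. Crh is at 0 in both CO sections, Sprr1a and Olfm4 are higher in both DES sections, Ankrd37, Myo3b and Cp are lower in both, and Acaa2 and Serpina1c overlap.

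Within the DES sections, a Crh UMI was found in 85 of 1575 spots of section 1 (5.4%) and in 264 of 1357 spots of section 2 (19.5%). Spots with an Epcam UMI held 92.1% and 97% of the Crh UMIs, and 82.8% and 86.5% of all UMIs. Crh was gathered in few of the 10 spot clusters of a section. In section 1 spot cluster 2 held 119 of the 126 UMIs, at 49.0 CPM, and spot cluster 1, with 332 spots and Epcam at 505 CPM, held none. The study's text calls cluster identification limited in the other DES section, though it gives those clusters similar identities. In section 2 spot cluster 2 was at 188 CPM, spot cluster 1 at 55.3 CPM and spot cluster 3 at 39.1 CPM, while spot cluster 7, with the highest Epcam, 756 CPM, was at 6.75 CPM of Crh. Epithelial spots were thus of both kinds, rich and poor in Crh.

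In spots with Crh some genes of the higher set were higher and some were lower. Spots with an Epcam UMI were divided into those with a Crh UMI, 77 in section 1 and 251 in section 2, and those without, 829 and 629. Their median depths were 7122 and 7289 UMIs in section 1 and 11663 and 6902 UMIs in section 2. The spots of a section are not replicates, and the ratios of pooled levels are descriptions with counting intervals. Sult5a1, a sulfotransferase gene, was 3.18-fold higher in spots with Crh in section 1 (1.73 to 5.56) and 2.69-fold in section 2 (1.90 to 3.84). Serpina1a was 2.18-fold and 1.66-fold higher and Serpina1c 1.92-fold and 1.69-fold. In all 3 the intervals of both sections lay above 1, but how many of all genes did so was not counted.

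Sprr1a, second in cluster 0, was the reverse, with ratios of 0.199 (0.173 to 0.227) and 0.317 (0.299 to 0.335). It was at 339 CPM in spots with Crh and 1709 CPM in spots without in section 1, and at 468 and 1478 CPM in section 2. Steap4, of the lower set, had ratios of 0.0992 and 0.352, and Olfm4 0.434 and 0.799, in the same direction as in cluster 0. Cp, also of the lower set, went the other way, with ratios of 1.33 (0.739 to 2.25) and 1.59 (1.16 to 2.18). Of the 15 lower genes, 4 had ratios under 1 in both sections and 1, Cp, above 1 in both. Over 5846 genes the shares were 25.1% and 38.6%, so the 4 are close to the share of all genes. Calb1, with 1 UMI in the spots of section 2, had no ratio there and was in neither count. Ccl6 and H2-Aa were lower in the spots with Crh of section 1 and higher in those of section 2, and Lgi2 was higher in section 1 and had an interval that held 1 in section 2. Acaa2 had ratios of 1.47 (1.09 to 1.95) and 0.975 (0.799 to 1.19), Meis2 1.10 and 1.07, and Epcam itself 1.00 and 0.972.

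**Figure D5:**
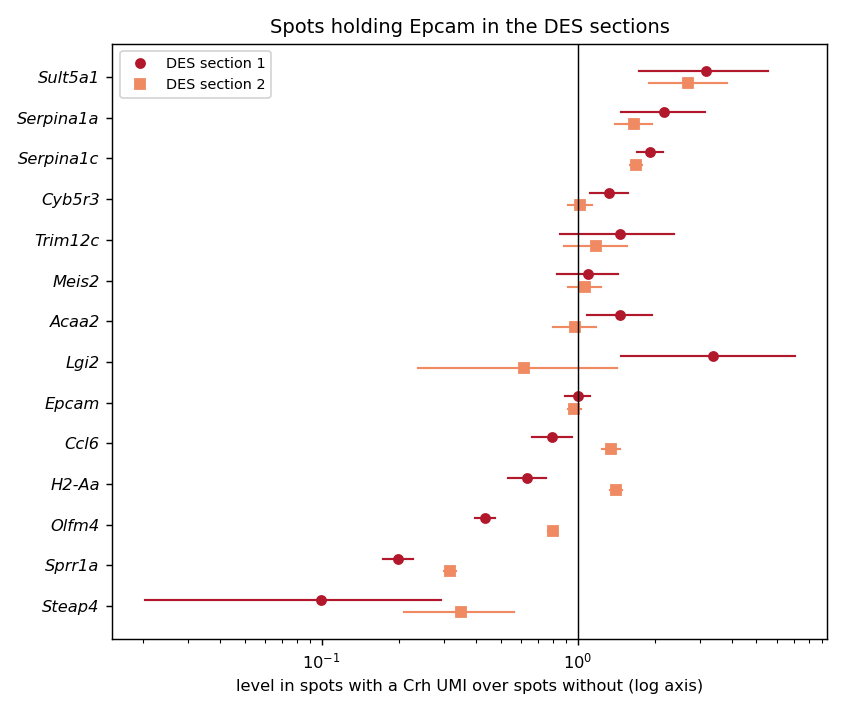
Ratio of the pooled level in spots with a Crh UMI over spots without, among spots with an Epcam UMI, for both DES sections on a log axis; bars are exact 95% counting intervals and the line marks 1. Sult5a1, Serpina1a and Serpina1c lie right of the line in both sections, and Olfm4, Sprr1a and Steap4 left of it in both.

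Of the 14 higher genes other than Crh, 7 had ratios above 1 in both sections and 3 under 1 in both. Of the 5846 genes that reached 20 CPM in the clustered cells and have a ratio in both sections, 38.6% and 25.1% did. Both counts are not far from these shares, so nothing is read from them. The interval lay above 1 in both sections for 4 of the 14 and under 1 in both for 1, Sprr1a. Intervals were not computed over all genes, so these 2 counts have no share to be set against. Intervals of Meis2, Trim12c, Rhoj and Ankrd37 held 1 in both sections and that of Cyb5r3 in section 2. The promoter of Sprr1a, chr3:92485832-92486131 on the minus strand of GRCm38.p6, is shown because the gene was second in cluster 0. Fos and Jun proteins bind at TGAGTCA, and capitals mark these letters on either strand.
Sprr1a promoter: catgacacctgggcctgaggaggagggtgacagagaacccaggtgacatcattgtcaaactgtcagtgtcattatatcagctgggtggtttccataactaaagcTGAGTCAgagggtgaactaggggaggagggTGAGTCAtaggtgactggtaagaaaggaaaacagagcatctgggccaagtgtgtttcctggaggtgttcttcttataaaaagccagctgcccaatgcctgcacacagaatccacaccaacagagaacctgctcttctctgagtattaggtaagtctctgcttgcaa
It held 2 matches, and 5.2% of all promoters in the table held at least 1. A promoter of Crh was not printed here.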

How the data were processed

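Per the labels and the study's methods, the authors made the deposited counts (UMIs per gene and cell, or per gene and spot) with bcl2fastq 2.20.0.422, Cell Ranger 3.0.1 and Space Ranger 1.2.2 on mm10, versions from the submitters' processing notes. The methods state that potential doublets were removed, but not whether before deposit, and no doublet caller was run here. The deposited fraction of repeated reads per cell (saturation) was read as a depth check only. Cluster numbers, cell types and spot clusters are the authors' own.

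The members and gene lists were chosen with earlier results of these data known. Levels in CPM come from the UMIs of all cells of a cluster together, and their 95% intervals are exact Poisson intervals. A gene was past the fold at a ratio of 1.5 with 20 CPM in either group. Shares used cells thinned to 3000 UMIs (seed 20230) with Clopper-Pearson intervals. Intervals and floors (3 UMIs) cover counting error only. Named genes were the 15 highest and the 15 lowest ratios, Crh, Epcam, the members of 25 gene lists furthest from a ratio of 1 or that define their list, and the 10 genes most correlated with Crh over the clusters (log2(CPM + 1)). Genes named against single clusters were chosen after their values were seen. Section sums (9117099 to 12506177 UMIs) were tested with edgeR 4.0.16 (quasi-likelihood, TMM, Benjamini-Hochberg, adjusted p under 0.05) in R 4.3.3, with DESeq2 1.42.0 as an alternative, and the code was tested on simulated data. Alternatives changed scaling, minimum level, depth, clusters compared, thinning, filter, section block and single sections. Gene positions are those of GENCODE and promoters those of RefSeq, GRCm38.p6. Some members of the gene sets are counted but not reported here by name.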

Additional observations from a re-analysis of the deposited data

Results flagged for a closer look

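Crh was also present in DES cells to which the study gave no cell type and which enter none of the comparisons. These 6611 cells held 2687 Crh UMIs, or 63.5 CPM (exact 95% interval 61.1 to 65.9), and 8.29% of them had at least 1 Crh UMI. The result was marked because the cells of the CO library that also lack a cell type, 20134 cells, held 4 Crh UMIs, or 0.0236 CPM (0.00642 to 0.0604). The median depth was 2178 UMIs in these DES cells and 4137.5 UMIs in these CO cells. The level in these DES cells was above that of DES mesothelial cells, 3.95 CPM, and under that of cluster 0, 434 CPM. Which cells they are was not tested.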

How the results depend on the processing

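For the cells, 76 to 98 genes were higher and 154 to 188 lower under the other scalings, the depth range and without clusters 5 and 6. With a minimum of 5 CPM the counts were 188 and 442, and with no minimum beyond 3 UMIs in each group 969 and 1504, where more low genes enter. Over 6 alternatives 15 of 15 higher and 14 of 15 lower genes stayed past 1.5-fold, Ccl6 being the exception, and 52 of 180 ratios moved beyond counting error with 0 reversed. Alternatives added after the data were seen gave 85 and 158 genes without shared barcodes, 90 and 160 without the tenth of cells richest in Crh, 82 and 133 without cluster 9, and 77 and 150 without cluster 6. In the sections 747 genes were called, 793 with DESeq2 size factors, 863 without the filter, 527 with the replicate block, 1791 by DESeq2 and 3 to 2819 with a section left out. Of the genes highest in cluster 0 the count called higher (1) became 2 with DESeq2 size factors, 3 without the filter, 2 with the block, 5 by DESeq2 and 0 to 3 with a section left out. Of the lowest genes the count called (3) became 5 with the block, 7 by DESeq2 and 0 to 9 with a section left out. Cyr61 ranged from -0.97 to 1.37 on the log2 scale with a section left out and was reversed at 1.37 (edgeR, adjusted p = 0.0480) without the first CO section. For Crh the adjusted p ranged from 0.000233 (DESeq2) to 0.0759. Same-numbered sections share only a number (correlation of their deviations -0.03). The cause of these changes was not tested. A fit without 1 section assumes that the lone section varies like the other group.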
